A study of Mus musculus with 54 samples.

Results

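Cirbp and Rbm3 encode cold-inducible RNA-binding proteins, and their transcripts were read here as 2 of the 24346 genes of a mouse liver RNA sequencing table, chosen by name as liver readouts of the body temperature rhythm. Livers of 3 genotypes were collected at 6 times 4 h apart, named ZT0 to ZT20 for the hours since lights on; a group of 1 genotype and 1 time held 3 livers, which makes 18 groups and 54 libraries. WT mice have Bmal1, a core transcription factor of the circadian clock, in all tissues. KO mice carry a floxed STOP sequence in the Bmal1 gene. RE mice carry the same STOP allele together with Syt10-Cre, which by design removes the STOP in the suprachiasmatic nucleus, the central clock of the brain, and leaves it in the liver. The labels give neither age nor sex, and no temperature record was used here. They call the livers separate samples and do not say how the mice were housed or matched, so p-values measure the spread between these samples.

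Cirbp and Rbm3 each combine an RNA recognition motif with a glycine-rich tail. Mild cooling raises both transcripts and warming lowers them, whereas the heat shock genes, driven by the transcription factor HSF1, respond to warming in the opposite direction. In mice, body temperature is low in the light phase and high in the dark phase. Both proteins are known to influence where transcripts are cleaved and polyadenylated. Cirbp is also known to bind the Clock transcript, and Rbm3 to bind ribosomes and act on translation.

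By RefSeq (GRCm38.p6, the assembly called mm10), Cirbp lies on chromosome 10 from 80165990 to 80172786, and Rbm3 lies on chromosome X from 8138975 to 8145880. A reference sequence upstream of the transcription start was at hand for 1 of the 2 genes, Cirbp. It is shown because the gene's response to mild cold has been traced to an element in this region. The run below is 189 bases of RefSeq sequence on the plus strand at chr10:80167589-80167777. It ends at the base before an exon that starts at 80167778, overlaps no exon of the 7 annotated Cirbp transcripts, and lies in an intron of 1 of them, whose start is farther upstream. Capitals mark the letters of the mild cold response element (TCCCCGCC, positions 4 to 11), GC boxes (GGGCGG at 26 to 31 and its reverse complement at 123 to 128) and CCAAT boxes (CCAAT at 70 to 74 and its reverse complement at 166 to 170), with positions counted from the first base shown.
Cirbp: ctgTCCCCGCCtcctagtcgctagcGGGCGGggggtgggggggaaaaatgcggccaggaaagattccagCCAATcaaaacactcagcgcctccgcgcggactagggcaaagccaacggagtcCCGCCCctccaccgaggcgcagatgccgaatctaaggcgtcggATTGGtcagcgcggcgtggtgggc
Of 32817 annotated start windows searched on both strands, 2.9% held the cold response letters, 22.6% the GC box and 26.5% the CCAAT box. The E-box CACGTG, bound by the Bmal1 and Clock proteins, was not found in this run and was held by 4.0% of all windows. The heat shock element letters GAANNTTC or TTCNNGAA (9.6% of all windows) and the cyclic AMP element TGACGTCA (0.7%) were not found either. The run has a GC content of 66.1%. The motifs overlap each other nowhere in it, and a match of letters is a description, not a bound site.

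Values are FPKM, read fragments set relative to transcript length and to the mapped total of the library, so levels can be compared between the genes. The libraries summed to between 572995 and 751399 FPKM, and 14654 to 15810 genes lay above 0. The table holds no counts, so sequencing depth cannot be read from it and intervals for counting error are not given. Arntl, the gene of Bmal1, spanned 0.202 to 10.3 FPKM in WT, 9.76 to 14.2 in KO and 7.60 to 15.5 in RE; these whole-gene values check nothing of the STOP allele. Markers of hepatocytes dominated every library (summed level 22860 to 49389 FPKM), with Alb listed at 0 in all WT libraries. The summed pancreas markers reached 22.4 FPKM in RE ZT16 liver 2, against a median of 0.951 in RE, and the summed gut markers were highest in WT ZT0 liver 0 (256 FPKM, WT median 131). Calls that rest on these livers are given with and without them. Most fitted sizes, peak times and ratios are given with all livers, some with their range as single livers were left out. A total of 10932 genes, Cirbp and Rbm3 among them, averaged 1 FPKM or more in some group and were tested as log2(FPKM + 1). All livers are bulk tissue, in which fewer cells of a type and less RNA per cell cannot be told apart.

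Cirbp had a daily rhythm in WT liver with its high around ZT4 to ZT8. The 3 WT livers had 20.1, 22.9 and 23.8 FPKM at ZT4 and 20.0, 22.2 and 24.6 at ZT8. They had 11.9, 11.3 and 8.59 FPKM at ZT16 and 11.9, 12.9 and 7.95 at ZT20. All 6 livers of ZT4 and ZT8 thus lay above all 6 of ZT16 and ZT20. At ZT0 and ZT12 the values lay between those extremes or close to them, with 16.1, 17.2 and 12.5 FPKM at ZT0 and 19.8, 17.1 and 15.9 at ZT12. A 24 h cosine fitted to the 6 group means had an amplitude, from mean to peak, of 0.58 (log2, SE 0.11), which is a fitted fold of 2.24 between peak and trough. The peak was at ZT6.42 (SE 0.70 h) and the rhythm was called by limma (adjusted p 0.000197). Of all tested genes, 34.8% had a called rhythm in WT, and 96.8% had a smaller amplitude than Cirbp there.

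In KO liver the time course of Cirbp was flatter at its low end. The 3 KO livers had 26.2, 23.0 and 24.5 FPKM at ZT4, the highest group, and 12.2, 14.8 and 15.0 at ZT20, the lowest, and those groups did not overlap. At ZT16 they had 20.6, 18.8 and 11.1 FPKM, so that 2 of the 3 livers were above the highest WT liver of that time and 1 was not. At ZT0 they had 18.4, 16.9 and 20.1, at ZT8 19.1, 12.9 and 22.9, and at ZT12 17.9, 17.3 and 20.2. These times overlap each other. The cosine had an amplitude of 0.26 (log2, SE 0.11), 45.0% of that in WT, and was not called by limma (adjusted p 0.444, unadjusted p 0.0590). Of all tested genes, 95.8% had a smaller amplitude than Cirbp in KO. The median amplitude over all tested genes was 0.08 in KO, against 0.14 in WT. In KO 0.0366% of tested genes, 4 genes, were called at all, and 1301 had an unadjusted p under 0.05.

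In RE liver Cirbp again had a called rhythm, around scattered single livers. The 3 RE livers had 26.6, 32.2 and 19.2 FPKM at ZT4 and 10.5, 10.96 and 13.0 at ZT16, with no overlap between those times. At ZT0 they had 9.05, 12.4 and 27.1 FPKM, and at ZT8 19.4, 38.2 and 16.2, so that 1 liver of each of these groups stood at least 10 FPKM above the other two. At ZT12 the values were 17.4, 22.6 and 27.4, and at ZT20 they were 15.1, 16.1 and 13.5. The amplitude was 0.50 (log2, SE 0.11) with a peak at ZT6.82 (SE 0.81 h), and limma called the rhythm (adjusted p 0.00102), as it did for 46.8% of tested genes in RE. The RE peak was 0.41 h later than the WT peak, with an SE of 1.07 h that is larger than the shift.

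Rbm3 had a daily rhythm in WT liver that ran later than that of Cirbp. The 3 WT livers had 17.9, 25.4 and 27.0 FPKM at ZT0, the lowest group, and 44.4, 59.2 and 47.4 at ZT12, the highest. Every liver of ZT8 (46.6, 44.5 and 41.0 FPKM), ZT12 and ZT16 (49.4, 49.7 and 39.4) was above every liver of ZT0 and ZT20 (31.8, 38.0 and 29.9). The ZT4 livers, with 29.2, 33.6 and 45.5 FPKM, overlapped both sets. The amplitude was 0.49 (log2, SE 0.09), the peak lay at ZT11.9 (SE 0.69 h), and limma called the rhythm (adjusted p 0.000158). The fitted fold between peak and trough was 1.97.

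In KO liver Rbm3 stayed in a narrower range. The 3 KO livers had 41.1, 49.2 and 44.7 FPKM at ZT0, 47.8, 38.7 and 39.5 at ZT4, and 57.1, 38.4 and 52.6 at ZT8. They had 48.2, 47.7 and 47.4 FPKM at ZT12, 53.7, 48.1 and 65.3 at ZT16, and 33.3, 36.7 and 38.9 at ZT20. The ZT20 livers were below those of ZT0, ZT12 and ZT16, those of ZT4 were below those of ZT16, and the other pairs of times overlapped. The amplitude was 0.16 (log2, SE 0.09), 33.7% of that in WT, and was not called by limma (adjusted p 0.610, unadjusted p 0.184). A smaller amplitude than that of Rbm3 was found for 86.2% of tested genes in KO and 95.2% in WT.

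In RE liver Rbm3 had its widest course. The 3 RE livers had 27.6, 28.2 and 40.0 FPKM at ZT0 and 29.7, 31.0 and 36.3 at ZT4. They had 65.1, 56.0 and 65.1 FPKM at ZT12 and 71.3, 43.8 and 121.6 at ZT16. All ZT12 and ZT16 livers lay above all ZT0 and ZT4 livers, and the ZT16 livers had the widest spread of any Rbm3 group. At ZT8 the values were 41.3, 64.2 and 45.0 FPKM, and at ZT20 they were 50.7, 49.5 and 37.5. The amplitude was 0.61 (log2, SE 0.09), the peak lay at ZT14.0 (SE 0.55 h), and limma called the rhythm (adjusted p 8.37e-06). As single livers were left out, that amplitude ran from 0.50 to 0.71, against 0.49 in WT with all livers. Without the liver of 121.6 FPKM, which also held the highest pancreas markers, and without the WT liver of highest gut markers, the calls of both genes in WT and RE were the same. The RE peak of Rbm3 was 2.06 h later than the WT peak (SE 0.88 h), a difference between estimates that was tested only as part of the rhythm differences that follow.

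**Figure D1:**
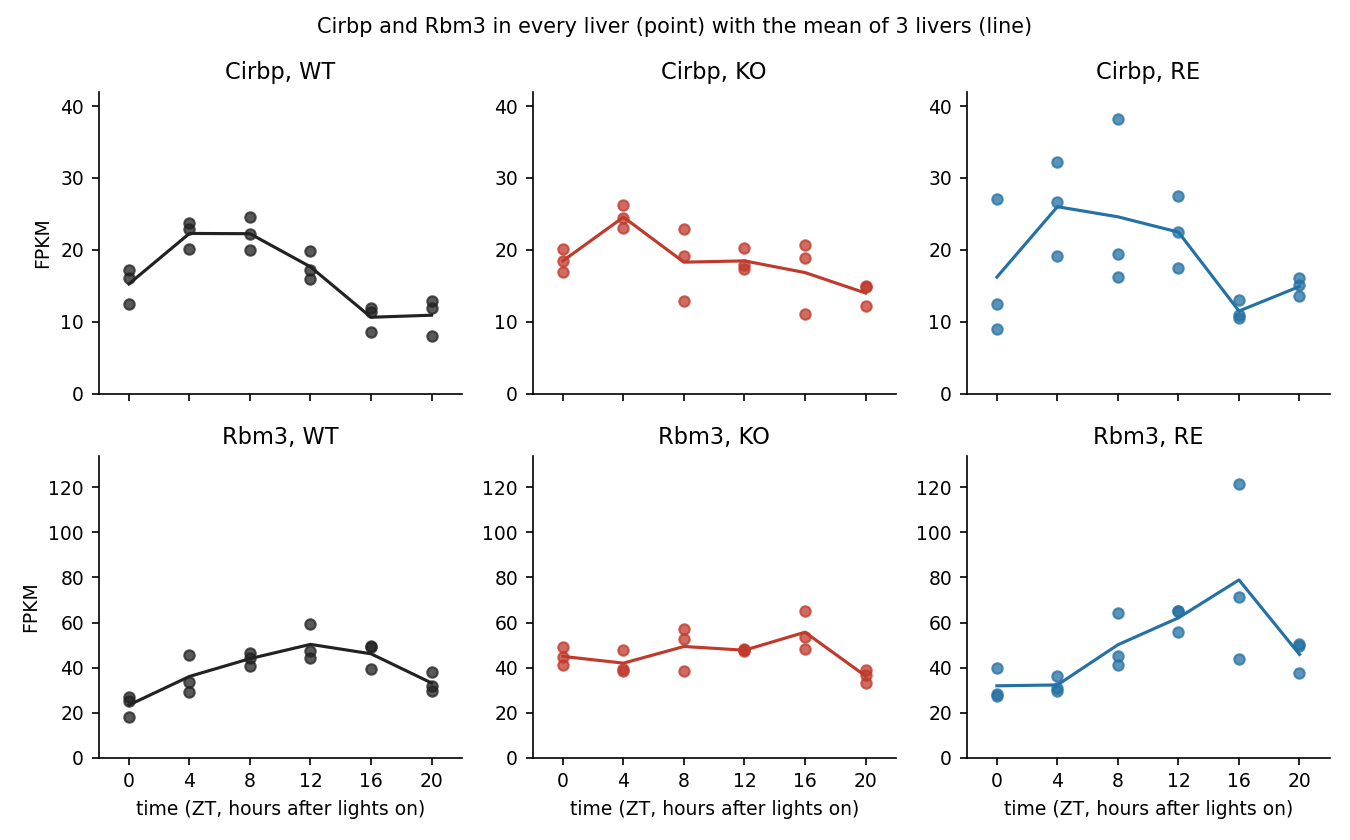
FPKM of Cirbp (top) and Rbm3 (bottom) against time of day in hours after lights on, in WT, KO and RE; points are single livers and lines join the means of 3 livers. Cirbp was highest around ZT4 to ZT8 and Rbm3 around ZT12 to ZT16 in WT and RE, and the KO lines are flatter.

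The question of whether the rhythms differ between genotypes was put to a test of the difference itself, and with all livers neither gene passed it for any pair. Between KO and WT the rhythm of Cirbp differed by 0.33 (log2, the length of the difference of the fitted cosines, SE 0.15, limma adjusted p 0.303) and that of Rbm3 by 0.32 (SE 0.12, adjusted p 0.197), where 9.06% of tested genes passed. Between RE and WT the size was 0.10 for Cirbp (SE 0.15, limma adjusted p 0.880) and 0.31 for Rbm3 (SE 0.12, adjusted p 0.174), where 14.1% passed. These comparisons share the WT livers. Between RE and KO it was 0.27 for Cirbp (SE 0.15, limma adjusted p 0.415) and 0.47 for Rbm3 (SE 0.12, adjusted p 0.0551), where 3.07% passed. The unadjusted p of Rbm3 was 0.0428 for KO against WT, 0.0516 for RE against WT and 0.00191 for RE against KO. A called rhythm in WT or RE beside an uncalled one in KO is therefore not a shown difference for either gene. The Rbm3 difference between RE and KO lay near the threshold. It passed (adjusted p 0.0446) when genes under a mean of 5 FPKM were left out, and its adjusted p ran from 0.0109 to 0.105 as single livers were left out. The value of 0.0109 came without RE ZT16 liver 1, the lowest liver of that group (43.8 FPKM). Without the same liver the difference of Rbm3 between RE and WT passed too (0.43, limma adjusted p 0.0200).

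**Figure D2:**
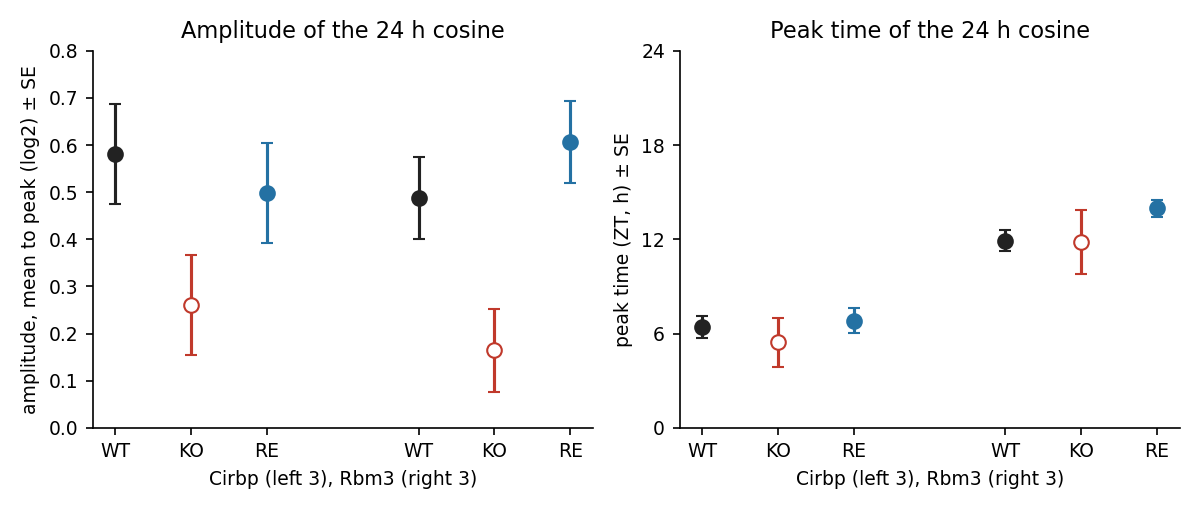
Amplitude (log2, mean to peak) and peak time (hours after lights on) of the fitted 24 h cosine for Cirbp and Rbm3 in WT, KO and RE, with SE; filled points have a limma adjusted p under 0.05. Amplitudes in KO were 0.26 and 0.16 against 0.58 and 0.49 in WT, and the fitted peak of Rbm3 was later than that of Cirbp in each genotype, KO without a called rhythm.

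The fitted peak of Rbm3 followed that of Cirbp by 5.49 h in WT (SE 0.98 h) and by 7.14 h in RE (SE 0.98 h). In KO, where neither rhythm was called, the fitted lag was 6.41 h with an SE of 2.55 h. A 12 h component, which has 3 points per cycle in these data, was called for neither gene in any genotype. Its amplitude was at most 0.19 (Cirbp in KO, log2, SE 0.11, limma adjusted p 0.943). Such components were called in 0.247% of genes in WT and in 0 genes of KO and of RE by limma, where 497 and 987 genes had an unadjusted p under 0.05.

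Since both transcripts come from the same liver, their ratio follows how they part over the day without reference to any other gene. In WT, Rbm3 was at 1.58 ± 0.53 times the FPKM of Cirbp at ZT0, 1.61 ± 0.26 at ZT4 and 4.37 ± 0.22 at ZT16 (SD, n = 3 each). In RE the ratio was 1.32 ± 0.50 at ZT4 and 6.72 ± 2.69 at ZT16, with single livers from 0.962 to 9.39 (SD, n = 3 each). In KO it was 1.71 ± 0.11 at ZT4 and 3.69 ± 1.92 at ZT16 (SD, n = 3 each). All WT livers of ZT16 thus had a larger ratio than all those of ZT0 and ZT4, and the same held between ZT16 and ZT4 in RE and in KO. On the log2 scale, taken as Cirbp minus Rbm3, the ratio had a 24 h amplitude of 0.71 in WT (SE 0.10), 0.32 in KO (SE 0.11) and 0.89 in RE (SE 0.16). The RE amplitude ran from 0.77 to 0.95 as single livers were left out. A two-sided permutation test of the 18 livers over the times gave adjusted p = 0.000105 in WT, 0.0143 in KO and 9.0e-05 in RE, over 3 tests. Adjusted over 3 tests and not 10932, the ratio is the measure of these genes that passed a test of rhythm in KO. That call ended without KO ZT16 liver 2, which had the lowest Cirbp (11.1 FPKM) and the highest Rbm3 (65.3 FPKM) of its group: the amplitude was then 0.21 and the permutation p 0.0502 after adjustment.

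**Figure D3:**
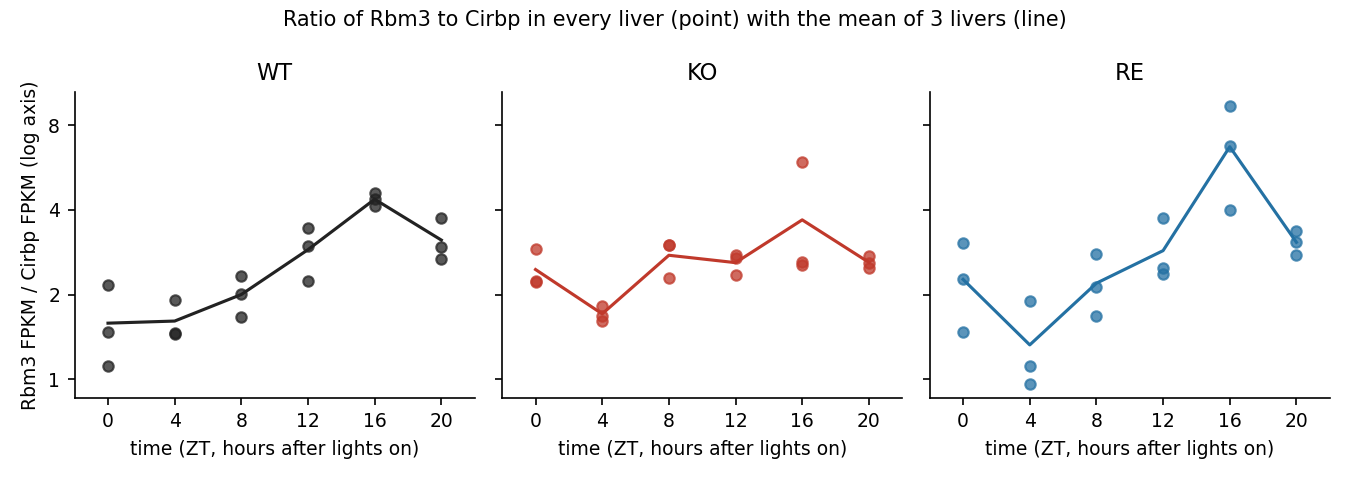
Ratio of Rbm3 FPKM to Cirbp FPKM on a log axis against time of day in hours after lights on; points are single livers and lines join the means of 3 livers. The ratio was largest at ZT16 in each genotype, with means of 4.37 in WT, 3.69 in KO and 6.72 in RE.

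Averaged over the day, Rbm3 was higher than WT in both mutant genotypes, and the test did not separate Cirbp. Over 18 livers per genotype Rbm3 averaged 38.9 FPKM in WT, 46.0 FPKM in KO and 50.2 FPKM in RE, and Cirbp 16.5, 18.4 and 19.3 FPKM. The level of Rbm3 was higher in KO by 0.27 (log2, 95% interval 0.10 to 0.45, limma adjusted p 0.0106), with a higher mean at 5 of the 6 times. In RE it was higher by 0.31 (log2, 95% interval 0.13 to 0.49, limma adjusted p 0.00352), also at 5 of 6 times. That RE difference ran from 0.25 to 0.37 as single livers were left out. Level differences were called for 42.3% of tested genes in KO (22.1% higher) and for 45.9% in RE (24.2% higher), so a call of this kind was common. Both comparisons rest on the same WT livers. Alb was listed at 0 in all WT libraries but not in all of KO or of RE. Whether the WT libraries were handled differently was not tested. Cirbp differed by 0.18 in KO (95% interval -0.03 to 0.40, limma adjusted p 0.162) and by 0.18 in RE (95% interval -0.04 to 0.39, adjusted p 0.176). Its mean FPKM was above that of WT at 5 of the 6 times in KO and at 6 of 6 in RE. Between RE and KO the level differed by -0.01 for Cirbp (95% interval -0.22 to 0.21, limma adjusted p 0.984) and by 0.04 for Rbm3 (95% interval -0.14 to 0.21, adjusted p 0.901), where 0.192% of tested genes were called. The orders of the daily means, WT below KO below RE, are therefore beyond the spread for Rbm3 in the step from WT to the mutants and within it for the step from KO to RE.

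Some markers of other liver cells moved with genotype in the same libraries. Over all tested genes 22.1% were called higher and 20.2% lower in KO than in WT, and 24.2% and 21.7% in RE. The summed level of the 5 bile duct markers had a median of 27.5 FPKM in WT (range 18.1 to 127), 68.9 in KO (26.0 to 171) and 64.2 in RE (20.7 to 149). That sum rests on part of the list: by limma 2 of the 5 were higher in KO and 2 in RE, and the median difference of the 5 was -0.16 and -0.12 (log2). The 7 Kupffer cell markers summed to a median of 82.2 FPKM in WT (64.0 to 146), 68.4 in KO (40.0 to 145) and 51.8 in RE (29.7 to 129.8), with 4 of 7 called lower in KO and 7 of 7 in RE (median difference -0.30 and -0.57). The gut markers summed to a median of 131 FPKM in WT (81.1 to 256), 79.7 in KO (41.6 to 117) and 91.9 in RE (20.5 to 154), and of 4 tested 4 were lower in KO and 2 in RE (median difference -0.61 and -0.38). The 4 red cell markers had medians of 249.9, 249.9 and 173 FPKM in WT, KO and RE (150.5 to 1032, 79.0 to 849 and 59.7 to 560), with 1 lower in KO and 2 in RE (median difference -0.16 and -1.01). Of the 2 tested lymphocyte markers 0 were called by limma in KO and 2 were lower in RE (median difference -0.08 and -0.34); the summed lymphocyte level was at most 5.72 FPKM. Of 5 endothelium markers 1 was called higher and 1 lower in KO, and likewise in RE. Of 6 stellate cell and fibroblast markers 1 was higher in KO and 0 were called by limma in RE. Of 2 tested neutrophil markers 0 were called by limma in either. No marker of these lists was at 0 in all libraries of a genotype. Their part in the higher Rbm3 level was not tested.

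Time by time, limma called Rbm3 higher than in WT at ZT0 in KO and at ZT16 in RE. At ZT0 all 3 KO livers (41.1, 49.2 and 44.7 FPKM) were above all 3 WT livers (17.9, 25.4 and 27.0), and the difference was 0.93 (log2, 95% interval 0.50 to 1.36, limma adjusted p 0.00328), where 4.14% of tested genes were higher. That call rested on WT ZT0 liver 0, the lowest Rbm3 liver of the series and the one with the highest gut and red cell markers (256 and 1032 FPKM): without it the difference was 0.76 and the limma adjusted p 0.0509. At ZT16 Rbm3 was higher in RE than in WT by 0.65 (log2, 95% interval 0.22 to 1.08, limma adjusted p 0.0288), where 9.29% of tested genes were higher, but the livers overlapped. This call ended without RE ZT16 liver 2, the liver with pancreas transcripts (0.28, adjusted p 0.392), without RE ZT16 liver 0 (0.66, adjusted p 0.0528) or WT ZT16 liver 2 (0.54, adjusted p 0.137), in a limma fit of RE and WT livers alone (adjusted p 0.0561) and with less weight for more variable libraries (0.09, adjusted p 0.695). At ZT0 the RE livers (27.6, 28.2 and 40.0 FPKM) differed from WT by 0.43, which limma did not call (adjusted p 0.214). Against KO, no time was called for Rbm3 in RE. The differences were -0.50 at ZT0, -0.37 at ZT4 and 0.37 at ZT12 (limma adjusted p 0.598, 0.996 and 0.491). With array weights, which count more variable libraries less, Rbm3 in RE was called higher than in KO at ZT12 (0.42, limma adjusted p 0.0435) and than in WT at ZT20 (0.52, adjusted p 0.0242). Without RE ZT16 liver 1 it was called higher than in KO at ZT16 (0.74, limma adjusted p 0.0265).

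For Cirbp no single time was called for any pair of genotypes with all livers weighted alike. Over all tested genes a difference between KO and WT was called for 8.65% at ZT0, 11.4% at ZT4, 11.5% at ZT8, 18.3% at ZT12, 14.6% at ZT16 and 9.37% at ZT20. Between RE and WT these shares were 9.39%, 7.67%, 13.4%, 18.9%, 18.7% and 11.6% in the same order. Between RE and KO they were 0.256% at ZT8, 0.467% at ZT12 and 3.27% at ZT16, and 0 by limma at ZT0, ZT4 and ZT20, where 826, 413 and 553 genes had an unadjusted p under 0.05. The largest difference was at ZT16, where KO exceeded WT by 0.59 (log2, 95% interval 0.06 to 1.11, limma adjusted p 0.130). In a limma fit of the WT and KO livers alone, whose spread is smaller than the pooled one, the same difference was called (adjusted p 0.0308), as it was without KO ZT16 liver 2 (0.85, adjusted p 0.0422) and with array weights (0.74, adjusted p 0.000604). Array weights also called Cirbp lower in RE than in KO at ZT16 (-0.68, limma adjusted p 0.0106). At that time 6.48% of tested genes were called higher in KO. At ZT20 Cirbp in RE exceeded WT by 0.44, which limma did not call (adjusted p 0.294).

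**Figure D4:**
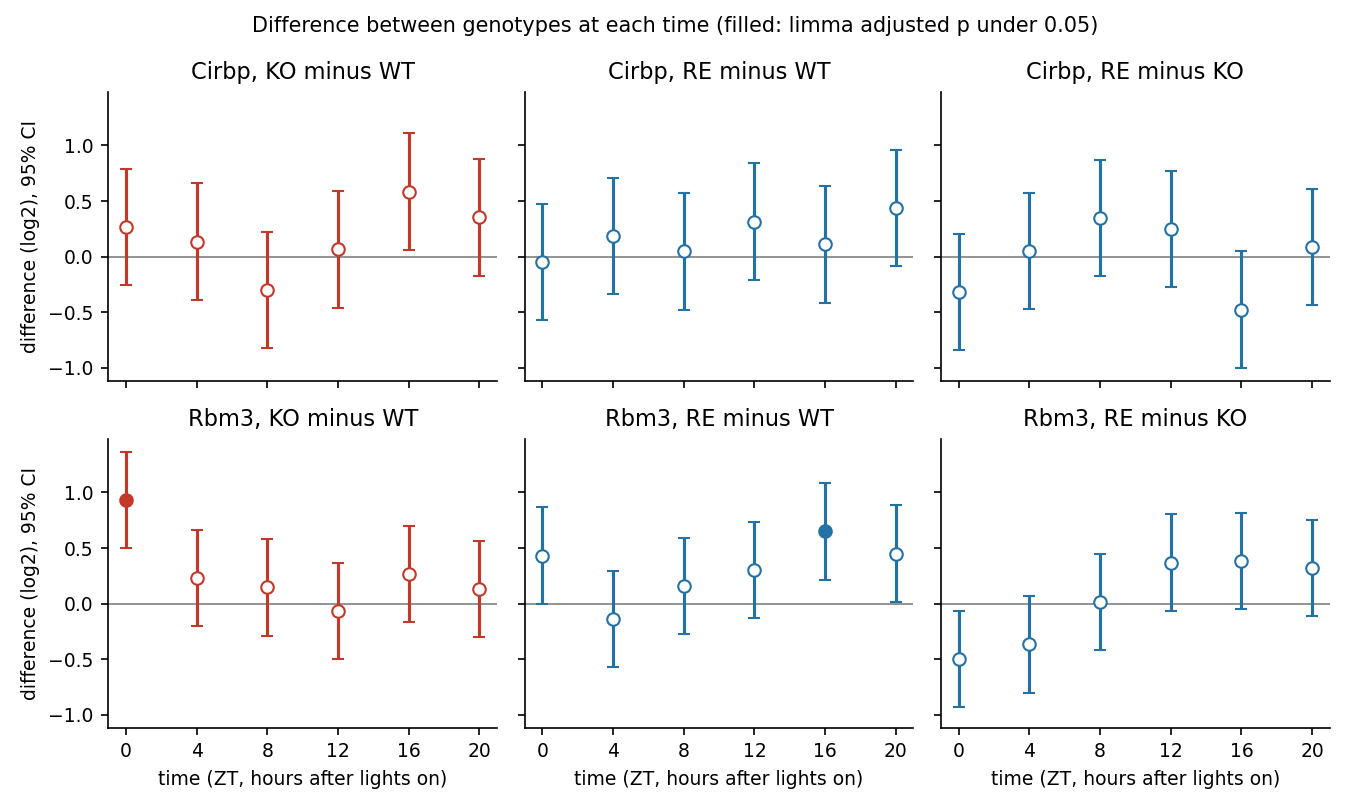
Differences in log2(FPKM + 1) between genotypes at each time in hours after lights on, with 95% intervals, for Cirbp (top) and Rbm3 (bottom); filled points have a limma adjusted p under 0.05. Filled are Rbm3 in KO minus WT at ZT0 (0.93) and in RE minus WT at ZT16 (0.65).

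Pooled over the 6 times, livers of the same genotype and time varied more in RE than elsewhere, but not at every time. The pooled SD within a group was 0.46 for Cirbp in RE (log2), against 0.22 in WT and 0.27 in KO, and 0.37 for Rbm3 in RE, against 0.23 and 0.18. For Cirbp the RE SD was 0.77 at ZT0 and 0.63 at ZT8 (WT 0.23 and 0.14), but 0.15 at ZT16 and 0.12 at ZT20 (WT 0.23 and 0.34). For Rbm3 it was 0.73 at ZT16 (WT 0.19), the group of the liver with pancreas transcripts, but 0.15 at ZT4 and 0.12 at ZT12 (WT 0.32 and 0.21). The difference in spread was not tested. Over all tested genes the median SD was 0.20 in RE, against 0.13 in WT and 0.17 in KO. In RE, 94.1% of genes had a smaller spread than Cirbp and 89.6% a smaller spread than Rbm3. Whether a liver high in Cirbp for its group was also high in Rbm3 was tested on these deviations, and no genotype passed. The deviations from the group means correlated with r = 0.23 in WT (rho 0.24), 0.13 in KO (rho 0.05) and 0.47 in RE (rho 0.53), over 18 livers each. An exact permutation within times, two-sided and adjusted over the 3 genotypes, gave p = 0.628, 0.694 and 0.109 for r, and 0.603, 0.885 and 0.155 for rho. Without the 2 livers farthest from the median in Cirbp, r was 0.02, 0.16 and 0.26.

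The heat shock genes, which respond to warming, were read beside them from a list of 24 chaperones, co-chaperones and HSF factors. In WT 21 of the 24 had a called 24 h rhythm, against 34.8% of all tested genes, and all 21 peaked between ZT12 and ZT24, with 11 before and 10 after ZT18. Over all tested genes 24.3% of called WT rhythms peaked between ZT12 and ZT18 and 25.1% after ZT18. In RE 19 of 24 were called, against 46.8% of all genes; of the 19, 6 peaked between ZT12 and ZT18 and 11 between ZT18 and ZT24, against 28.4% and 20.9% of all called RE rhythms. In KO 0 of 24 were called by limma (11 had an unadjusted p under 0.05, and 2 were called without KO ZT8 liver 1). The list had a median amplitude of 0.39 in WT, 0.15 in KO and 0.31 in RE, against 0.14, 0.08 and 0.16 over all tested genes. Hsph1, a co-chaperone of the HSP110 family, had an amplitude of 1.18 in WT with a peak at ZT17.8 and of 0.68 in RE at ZT18.1. Hsp90aa1, the inducible HSP90, had 0.95 at ZT19.2 and 0.68 at ZT19.4. Hspa4l had 0.72 at ZT19.7 in WT and 0.54 at ZT21.2 in RE. Chordc1 had 0.66 in RE at ZT17.0, Dnaja1, an HSP40, 0.52 at ZT15.7, and Cacybp 0.37 at ZT18.3. Against WT, 8 of 24 heat shock rhythms differed in KO, where 9.06% of all genes did, and 4 in RE, near the 14.1% of all genes. The 4 in RE include the mitochondrial chaperonin Hspd1 (from ZT17.5 to ZT0.063, limma adjusted p 0.00102) and Hsp90ab1 (from ZT19.2 to ZT23.6, adjusted p 0.0157). The count of differences in KO was 5 when no gene was filtered, and also without any 1 of WT ZT4 liver 1, WT ZT8 liver 1 or 2, WT ZT16 liver 2, WT ZT20 liver 1 or 2, or of KO liver 0 at ZT4, ZT8 or ZT16 and liver 1 at ZT16.

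Between livers of the same group, Cirbp had a negative correlation with the heat shock genes in each genotype, which passed the test in RE. This relation was added after the values had been seen. The mean log2 level of the 24 genes was taken in each liver, and its deviation from the group mean was set against those of Cirbp and Rbm3, in 6 relations over 18 livers each. For Cirbp r was -0.63 in WT (rho -0.68), -0.57 in KO (rho -0.48) and -0.80 in RE (rho -0.78). Exact permutations within times, two-sided and adjusted over the 6 relations, gave p = 0.0518, 0.243 and 0.00270 for r and 0.0610, 0.267 and 0.00939 for rho. The WT relation passed under some of the alternative settings given at the end, and no test compared the genotypes. Without the 2 livers farthest in the heat shock mean, r was -0.61, -0.22 and -0.72, so the value in KO rests on those livers. In RE the liver lowest in Cirbp had the highest heat shock mean of its group at 6 of 6 times, and the liver highest in Cirbp had the lowest at 5 of 6. At ZT0, for example, the RE liver with 9.05 FPKM of Cirbp had a heat shock mean of 5.14 (log2) and the liver with 27.1 FPKM had 4.80. Of 10908 genes outside the list, 0.101% had a lower r with the heat shock mean in RE than Cirbp, and 1.53% in WT. The relation of Rbm3 did not pass, with r = -0.30 in WT, 0.53 in KO and -0.22 in RE (rho -0.28, 0.40 and -0.33; exact permutation, adjusted p for r 0.408, 0.243 and 0.434, and for rho 0.382, 0.320 and 0.344). Without the 2 farthest livers the r of Rbm3 was -0.24, 0.44 and -0.05.

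**Figure D5:**
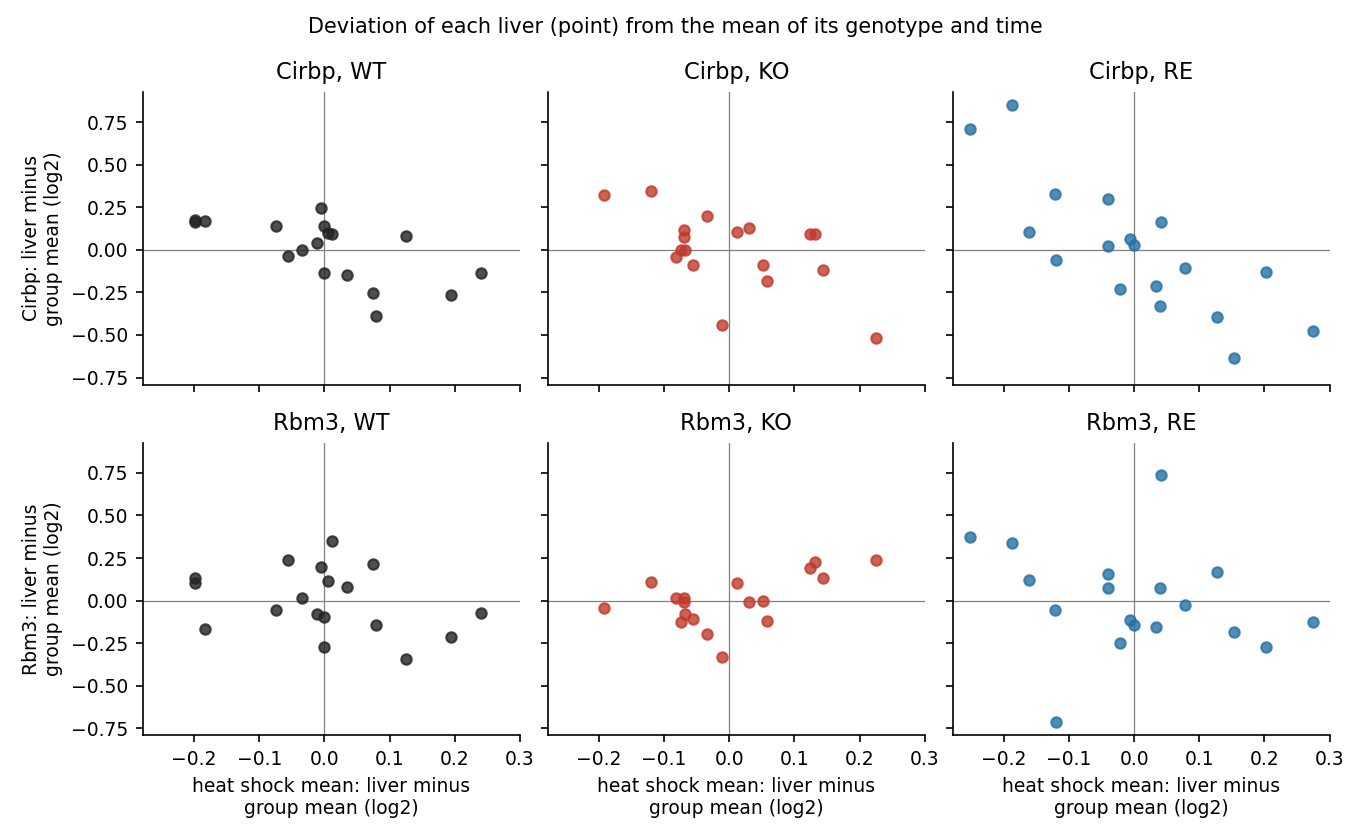
Each liver's deviation from the mean of its genotype and time, for Cirbp (top) and Rbm3 (bottom) against the mean of 24 heat shock genes, all in log2 units. Points fall from upper left to lower right for Cirbp in WT (r = -0.63) and RE (r = -0.80). For Cirbp in KO r was -0.57, and -0.22 without the 2 livers farthest in the heat shock mean. The Rbm3 panels have r of -0.30 (WT), 0.53 (KO) and -0.22 (RE).

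The RNA-binding relatives of the 2 proteins, glycine-rich hnRNPs and related RNA-binding proteins, did not move as a block. Of 14 members, 8 had a called rhythm in WT, 7 in RE and 0 in KO by limma (6 had an unadjusted p under 0.05 in KO, and 1 was called without KO ZT8 liver 1), against 34.8%, 46.8% and 0.0366% of all tested genes. The splicing regulator Tra2a had an amplitude of 0.66 at ZT19.9 in WT and 0.45 at ZT16.5 in RE, and its rhythm differed between them (limma adjusted p 0.00285). Ewsr1 had 0.20 at ZT12.0 in WT and 0.02 in RE, a called difference (limma adjusted p 0.0216). Hnrnpd, an AU-rich element binding protein, differed as well (limma adjusted p 0.00820), with 0.27 at ZT7.90 in WT and 0.09 in RE. Rbmxl1 was called in RE, with 0.24 at ZT18.5. Against WT, 4 of 14 rhythms differed in KO and 5 in RE, where 9.06% and 14.1% of all tested genes did.

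The CLK kinases and the SR proteins that they phosphorylate are known as temperature-sensitive regulators of splicing. Of 16 members, 9 were called in WT, 12 in RE and 0 in KO by limma (1 at an unadjusted p under 0.05, and 1 called without KO ZT8 liver 1), against 34.8%, 46.8% and 0.0366% of all tested genes. Between ZT12 and ZT18 peaked 6 of 9 in WT and 9 of 12 in RE, and 24.3% and 28.4% of all called rhythms. Tested for any difference among times in place of a cosine, 4 were called in WT, near the share of all tested genes (2573 of 10932). Srsf10 had an amplitude of 0.26 at ZT18.4 in WT and 0.35 at ZT16.6 in RE. The SR protein kinase Srpk1 had 0.20 at ZT18.3 in WT, and Srsf2 0.27 at ZT15.8. Clk4 had 0.29 at ZT14.9 and Srsf11 0.25 at ZT14.6 in RE. No member differed in rhythm from WT in KO or RE by limma, where 9.06% and 14.1% of all tested genes did. In this list 2 and 4 members had an unadjusted p under 0.05. When livers were left out in turn, 1 member differed in RE without RE ZT4 liver 2.

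Of 19 genes of the cleavage and polyadenylation machinery, on which both proteins are known to act, 5 had a called rhythm in WT and 11 in RE, and 0 in KO by limma (4 at an unadjusted p under 0.05). These counts are near the shares of all tested genes, 34.8%, 46.8% and 0.0366%. In fits of the livers of each genotype alone the counts were 9 in WT and 5 in RE, in the reverse order. All tested genes reversed likewise in those fits, with 5289 of 10932 called in WT and 3107 in RE. Cpsf6, a subunit of cleavage factor I, had an amplitude of 0.31 at ZT16.0 in WT and 0.41 at ZT16.0 in RE. Wdr33 had 0.23 at ZT22.3 and the poly(A)-binding protein Pabpc1 0.20 at ZT8.88 in WT. The poly(A) polymerase Papola had 0.23 at ZT19.3 and Cstf2 0.31 at ZT18.9 in RE. No member's rhythm differed from WT in KO or RE by limma, where 9.06% and 14.1% of all tested genes did. In each comparison 3 members had an unadjusted p under 0.05. In RE 1 member differed without any 1 of WT ZT4 liver 1, RE ZT0 liver 0, RE ZT12 liver 1, RE ZT16 liver 0 or 1, or RE ZT20 liver 2.

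Of 14 known partners and reported targets of the 2 proteins, 12 were tested; the receptors Tlr4 and Trem1, known for binding extracellular CIRBP, had a WT mean of 0.343 and 0.00545 FPKM and were not. Clock, the partner of Bmal1 and a reported target of Cirbp, had an amplitude of 0.64 at ZT21.7 in WT, 0.11 in KO and 0.36 at ZT17.1 in RE. It differed from WT in both (limma adjusted p 7.20e-05 in KO and 0.000273 in RE), and its level was higher by 0.35 in KO (adjusted p 0.000242) and 0.51 in RE (adjusted p 5.34e-07). Hnrnph1, an hnRNP of the H family, had a called rhythm in WT (0.27, ZT18.0) and RE (0.40, ZT16.0), as did the kinase Gsk3b (0.18, ZT17.7, and 0.17, ZT20.4). Prmt1, which methylates glycine- and arginine-rich proteins, had 0.24 at ZT13.3 in RE and 0.03 in WT, where it was not called. The nuclear import receptor Tnpo1 had 0.39 at ZT19.7 in RE and an uncalled 0.22 in WT, and the transcription factor Sp1 0.21 at ZT20.4 and an uncalled 0.16. For Prmt1, Tnpo1 and Sp1 the rhythm difference between RE and WT was not called (limma adjusted p 0.253, 0.540 and 0.404). Hif1a, the hypoxia factor, had no called rhythm and a lower level in KO (-0.29, limma adjusted p 0.000899) and RE (-0.30, adjusted p 0.000661), where 20.2% and 21.7% of tested genes were lower. Txn1, Rtn3, Tnpo2, Ybx1 and Dicer1 had called rhythms in none of the genotypes, with amplitudes up to 0.13. In all, 3 of the 12 were called in WT, 6 in RE and 0 in KO by limma (1 at an unadjusted p under 0.05, and 1 called without KO ZT8 liver 1), near the 34.8%, 46.8% and 0.0366% of all tested genes. In fits of each genotype alone the counts were 8 in WT and 3 in RE (5289 and 3107 of all 10932 tested genes). With median ratio scaling the WT count of partners and targets was 5 (3829 of all 10932). The WT count was also 5 without any 1 of KO ZT8 liver 0 or 1, KO ZT16 liver 0 or 2, RE ZT0 liver 0 or 1, or RE ZT16 liver 0; all livers share 1 estimate of the spread.

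Over the 18 group means, Cirbp and Rbm3 had a Pearson r of 0.00 with each other. These correlations share time of day and genotype and are given without a test, over 6121 genes that average 5 FPKM or more and have a symbol of their own. Among the most like Cirbp were Abtb1 (r 0.93), the kinase Map2k5 (0.92), the caspase Casp6 (0.91) and the plasmin inhibitor Serpinf2 (0.91). Most opposite were Cacybp, a heat shock list member (r -0.92), the thyroid hormone receptor Thrb (-0.92) and the sugar transporter Slc35b4 (-0.91). Abtb1, for example, peaked at ZT6.70 in WT with an amplitude of 0.42 and at ZT6.73 in RE with 0.41. Most like Rbm3 were nucleolin Ncl (r 0.86), the adaptor subunit Ap3m1 (0.84), Rbm7 (0.84), the small nucleolar RNA host gene Snhg3 (0.83) and the ribosome assembly factor Gtpbp4 (0.82). Among the most opposite were Dis3l, a catalytic exosome subunit (r -0.90), and Abhd14a (-0.86). Ncl peaked at ZT12.6 in WT and ZT15.5 in RE, with amplitudes of 0.20 and 0.21. Over the 54 single livers the like genes named here had r of 0.70 to 0.83 with Cirbp and 0.54 to 0.71 with Rbm3. The opposite genes named here had -0.77 to -0.54 with Cirbp and -0.74 to -0.64 with Rbm3. The order also moved: over single livers Thrb ranked 221 among those opposite to Cirbp, and Gtpbp4 ranked 80 among those like Rbm3. Over the group means, the 95th percentile of r among the 6121 genes was 0.70 for Cirbp and 0.57 for Rbm3.

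The division of reads adds a limit for Rbm3. The antisense gene Rbm3os overlaps 452 bases of Rbm3 on the opposite strand and was listed at 0 to 0.447 FPKM, and a processed Rbm3 pseudogene, Rbm3-ps, is annotated on chromosome 1 from 150265535 to 150265999. Whether strand was used in counting, and how reads shared with the pseudogene were treated, is not given in the sources used here, so the Rbm3 values carry that uncertainty.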

How the data were processed

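RNA of 54 liver samples was sequenced, 3 for each of 3 genotypes at 6 times. Reads were aligned to mm10 with TopHat, per the submitters' processing notes; its version is not given in the sources used here, nor are the program and gene annotation behind the FPKM. The authors deposited FPKM for 24346 genes and no counts, so precision rests on the spread between livers. Column numbers 0 to 2 differ from the replicate numbers of the labels, so each column was mapped to its group only.

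Values were taken as log2(FPKM + 1), which understates changes of low genes. Genes averaging 1 FPKM or more in some group (10932) were tested and 13414 were left out. A single limma 3.58.1 model in R 4.3.3 held a mean for each of the 18 groups, with eBayes and a trend (36 residual df). Rhythm was tested by a moderated F on 24 h cosine and sine terms across the 6 times. Rhythm differences, levels over the day, single times and 12 h components are contrasts of the same fit. p was adjusted by Benjamini and Hochberg over all tested genes, with a call under 0.05. Ratios and relations between livers used permutation tests (100000 resamples, seed 1) or exact permutations (46656 arrangements) in Python 3.11.15. The fit was tested on simulated data.

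Members and lists were chosen with earlier results of these data known. Named were Cirbp and Rbm3; the 5 genes most like and 3 most opposite to each; from each list up to 3 members of smallest adjusted p for the rhythm in WT and in RE and up to 2 for the RE against WT difference; and every partner or target. Some genes that this rule takes are not reported here. Alternatives were a pseudocount of 0.1, no filter or a filter at 5 FPKM, upper quartile and median ratio scaling, no trend, array weights, a test of any difference among times, the genotypes compared alone, likeness over 54 libraries and leaving out each liver. Leaving out the 2 livers of highest gut or pancreas markers, the heat shock relations and the tests of ratio differences were added after seeing the data.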

Additional observations from a re-analysis of the deposited data

Results flagged for a closer look

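The ratio of Cirbp to Rbm3 was singled out because its 24 h rhythm differed between RE and KO in a test of the difference itself, added after the values had been seen. The size of the difference was 0.576 on the log2 scale, from an amplitude of 0.32 in KO to 0.89 in RE. A two-sided permutation test of the 36 livers, adjusted over 3 pairs of genotypes, gave p = 0.0426 (unadjusted 0.0142). Rbm3 alone had a smaller unadjusted p for this pair (limma, 0.00191), but adjusted over 10932 genes it was 0.0551. The ratio passed with fewer tests to adjust for, and so shows no clearer difference than Rbm3 alone. The size of the ratio difference was 0.38 between KO and WT (adjusted permutation p 0.0540) and 0.22 between RE and WT (adjusted permutation p 0.446). Those comparisons share the WT livers. The difference between KO and WT passed in 7 of 36 tests that each left out 1 liver, with the lowest adjusted p, 0.00285, without KO ZT16 liver 2 (0.497). The other 6 left out KO ZT4 liver 1 or 2, WT ZT0 liver 2, WT ZT4 liver 2, WT ZT8 liver 0 or WT ZT12 liver 0. The call between RE and KO ended in 21 of 36 tests that each left out 1 liver. The adjusted p there rose to 0.0627 at most, without RE ZT16 liver 2, the liver with pancreas transcripts and 121.6 FPKM of Rbm3. The difference was then 0.46. Other RE livers whose omission ended the call were liver 0 at ZT4, ZT12 or ZT16 and liver 1 at ZT4 or ZT8. So did that of each of 15 KO livers, all but ZT4 livers 1 and 2 and ZT16 liver 2.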

How the results depend on the processing

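The rhythms of Cirbp and Rbm3 in WT and RE were called, and those in KO not called, under every alternative run, left-out livers included, and so was the higher level of Rbm3 in KO and in RE. No paired analysis was possible because the columns carry numbers that are not the replicate numbers of the labels. With array weights the rhythm difference of Rbm3 was called between KO and WT (0.30) and between RE and KO (0.36), as was the higher level of Cirbp in KO (0.23) and RE (0.25). The RE against KO difference of Rbm3 was also called with a filter at 5 FPKM (0.47). The Cirbp level in RE minus KO was 0.022 with array weights, and that of Rbm3 was -0.024 without the 2 livers of high gut or pancreas markers. At ZT8, Rbm3 in RE minus KO was -0.056 and -0.013 with upper quartile and median ratio scaling, and at ZT16 -0.032 with array weights. The correlation of Cirbp with Rbm3 in KO was -0.062 with upper quartile scaling. That of Cirbp with the heat shock mean was called in WT with a pseudocount of 0.1 (-0.62), upper quartile (-0.69) and median ratio (-0.65) scaling, and in KO with upper quartile scaling (-0.78). Neither scaling moved the median gene of a library by more than 0.091 (log2).

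Leaving out 1 liver at a time gave these ranges. For rhythm differences of Rbm3: 0.20 to 0.43 (RE against WT) and 0.36 to 0.59 (RE against KO). For levels in RE minus KO: -0.080 to 0.044 for Cirbp and -0.024 to 0.10 for Rbm3. For the ratio: an amplitude of 0.21 to 0.36 in KO and differences of 0.34 to 0.50 (KO against WT) and 0.46 to 0.69 (RE against KO). For correlations of Cirbp with Rbm3: -0.42 to 0.71 in KO and 0.34 to 0.60 in RE. For Cirbp with the heat shock mean in WT: -0.72 to -0.54. At single times in KO minus WT: -0.0011 to 0.15 for Cirbp and -0.15 to 0.056 for Rbm3 at ZT12. In RE minus WT: -0.47 to 0.27 for Cirbp at ZT0, -0.27 to 0.039 for Rbm3 at ZT4, -0.31 to 0.29 for Cirbp and -0.027 to 0.29 for Rbm3 at ZT8, and -0.022 to 0.19 for Cirbp at ZT16. In RE minus KO: -0.74 to 0.0015 (ZT0), -0.11 to 0.25 (ZT4), -0.0047 to 0.59 (ZT8) and -0.0034 to 0.15 (ZT20) for Cirbp, and -0.17 to 0.14 for Rbm3 at ZT8.

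Counts over all genes moved by over 1.5 times as follows. With array weights, rhythms were called in 6260 genes in WT (3801 otherwise) and 824 in KO (4). Rhythm differences were then called in 2665 (KO against WT, 990 otherwise), 3241 (RE against WT, 1538) and 1740 genes (RE against KO, 336), and levels differed between RE and KO in 575 (21). With the genotypes compared alone there were 1 called rhythm in KO, 3107 in RE (5116), 2 differences between RE and KO, and 0 level differences between RE and KO by limma (1451 at an unadjusted p under 0.05 in the pooled fit). With no filter 191 rhythms differed between RE and KO, and without the 2 livers 79 levels did. Leaving out 1 liver, rhythms in KO ran from 0 (without KO ZT16 liver 1 or 2) to 161 (without KO ZT8 liver 1), rhythm differences between RE and KO from 145 (without RE ZT12 liver 2) to 687 (without KO ZT8 liver 2) and levels between them from 13 to 172 (without RE ZT8 liver 2 and 0). Those omissions moved these counts by over 1.5 times in 14, 16 and 10 of 54 cases. At ZT4, differences in KO fell from 1251 to 679 (without WT liver 0) and in RE from 838 to 456 (without WT liver 2). At ZT0 those in KO fell from 946 to 543 (without WT liver 0), and at ZT20 from 1024 to 558 in KO and 1270 to 764 in RE (without KO liver 1 and RE liver 0). At ZT8 they fell to 835 in KO and 954 in RE (without WT liver 1), and at ZT16 to 1364 in RE (without WT liver 2). Between RE and KO they ran from 0 to 332 at ZT8, 0 to 106 at ZT12 and 3 to 829 at ZT16. With array weights the rhythms called in KO by limma, 0 in each list as reported, numbered 7 in the heat shock list, 3 in the glycine-rich list, 2 each in the CLK and cleavage lists and 1 among partners and targets, and heat shock rhythms differed from WT in 17 (KO) and 9 (RE). The cause was not tested. Depth is unknown, so genes near 0 FPKM cannot be judged.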
